A study of Mus musculus with 2 samples.

Results

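The enzymes that add or remove methyl and acetyl groups on histones were followed here in the newly made and the preexisting RNA of mouse embryonic stem cells. They were taken by gene symbol: the Kmt, Setd, Nsd, Ehmt, Suv39h, Prmt and Dot1l methyltransferases, the Kdm demethylases, the Kat, Ep300 and Crebbp acetyltransferases, the Hdac deacetylases and the sirtuins. In the mouse annotation GENCODE M21 (genome build GRCm38) the rule found 267 protein-coding transcripts of 79 genes, out of 121429 transcripts in the table, 49490 of them protein-coding transcripts of 21560 genes. The rule used names only and no measured value. It leaves out enzymes with other names, such as Ezh2 and Carm1, and takes a few SET-domain proteins whose known substrates are not histones.

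Wild-type cells of the male (XY) embryonic stem cell line DTCM23/49, depleted of feeder cells, grew on gelatin with serum and leukemia inhibitory factor. They received 200 µM 4-thiouridine (4sU), which is taken up and used in place of uridine during transcription, for 10 min. The 4sU-containing RNA was coupled to biotin and pulled down with streptavidin, which gave the labeled library of newly transcribed RNA, and the RNA left in the supernatant gave the unlabeled library of preexisting RNA. Both libraries come from the same cells and treatment and carry replicate number 1, so there is 1 library per pool, from 1 cell line and with no untreated cells. No difference below has a replicate check, and no test was made. The labels of the second library disagree, one naming preexisting and others total RNA. Unlabeled RNA was taken as its meaning.

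The deposited values are relative abundances per transcript length, with an exonic and an intronic entry for a transcript. A column of them totals 10 times the total of the usual TPM unit. They can be compared between genes and, as shares of a library, between libraries, but read counts cannot be had from them. The depth is therefore unknown, and values carry no interval for counting error. A gene's exon or intron value is the sum over its protein-coding transcripts. The share of introns was 15.4% in labeled and 6.26% in unlabeled RNA. The 10 pluripotency markers checked, among them Pou5f1 and Nanog, all had exon values of at least 72.9 in both libraries, with sums of 11495 labeled and 15746 unlabeled. The 6 fibroblast feeder markers summed to 7.26 labeled and 16.2 unlabeled, with 3 of the 6 at 0 in both. The 4 primitive endoderm, 3 mesoderm and 3 trophoblast markers each summed to less than 7 in either library. The 3 neural markers summed to 72.03 labeled and 73.5 unlabeled, nearly all of it Pax6, at 68.7 labeled and 70.5 unlabeled.

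Histone tails carry methyl groups on lysine and arginine and acetyl groups on lysine. Methylation of H3K4, H3K36 and H3K79 marks active genes, methylation of H3K9, H3K27 and H4K20 marks silent or compacted chromatin, and acetylation loosens chromatin and recruits bromodomain proteins. Writers and erasers of the same mark are present together in embryonic stem cells, where several of them are needed to keep the cells pluripotent or to let them leave that state. In RNA labeled for a short time, transcripts that turn over fast or that were made recently take a larger share than in preexisting RNA, and introns, which are removed soon after synthesis, take a larger share of the new RNA.

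Of the 79 genes, 78 had exon values above 0 in both libraries and a mean exon value above 1. The exception was Kdm4d, a demethylase known from testis, with exons at 0.93 labeled and 0 unlabeled and introns at 19.6 labeled and 6.38 unlabeled. The mean exon values of the 78 had a median of 169 (quartiles 44.4 and 340.1), against 38.1 (quartiles 8.90 and 143) over the 14119 coding genes that passed the same minimum. Kat7 had the highest unlabeled exon value, 2554, followed by Kdm1a at 1965, Kmt5a at 1763, Setd5 at 1601 and Kat6b at 1593. In the labeled library the order at the top was Kdm1a at 1089.3, Kmt5a at 1040.5, Kat6b at 913, Kat7 at 809.8 and Setd5 at 574. At the other end were Hdac9, at 1.03 labeled and 1.93 unlabeled, and Prmt8, at 4.70 labeled and 0.34 unlabeled. How far neighbours in these orders differ beyond error cannot be said from 1 library per pool.

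The exons of most of these enzymes took a smaller share of the labeled than of the unlabeled library, while their introns took a larger share. The median coding gene had the same directions. The exon value was higher in the unlabeled library in 59 of the 78 genes, and the intron value was higher in the labeled library in 78 of 78. The shares of all coding genes with these directions were not counted, so the counts set nothing apart about the enzymes. The median labeled over unlabeled ratio was 0.590 for exons and 4.09 for introns, against 0.836 for exons in all 14119 genes and 3.90 for introns in the 13025 of them with both intron values above 0. Exon ratios are given below as log2 of labeled over unlabeled relative to the median coding gene, which lay at -0.26 on the log2 scale, so that 0 is the median gene, -1 is 2-fold lower and 1 is 2-fold higher in labeled RNA. On this scale the 78 genes had a median of -0.50 (quartiles -0.86 and 0.22), and 52 of them lay below 0.

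More than 2-fold from the median gene were 25 enzymes. The 10 that were higher in labeled RNA are 12.8% of the 78, where 21.9% of all coding genes tested were higher. The 15 that were lower are 19.2%, where 14.8% of all coding genes were lower. The 10 higher genes were the arginine methyltransferases Prmt8 and Prmt2, the sirtuins Sirt4 and Sirt3, the deacetylases Hdac8 and Hdac11, and Setd6, Suv39h1, Kmt5c and Setd4. The 15 lower genes were Hdac5, Kmt2d, Crebbp, Kat7, Hdac7, Kdm5b, Setd5, Kdm5c, Sirt1, Kdm6b, Setd2, Kat6a, Dot1l, Kdm3b and Kdm6a. The split depends on the reference. Taken against the median of the 4402 coding genes with a mean exon value of at least 100, 17.9% of the enzymes were higher and 5.13% lower, where 30.2% and 6.90% of all coding genes were. With no centring 8.97% of the enzymes were higher and 34.6% lower, where 17.4% and 22.7% of all coding genes were. At a 1.5-fold mark 14 enzymes were higher and 36 lower, where 31.3% and 28.5% of all coding genes were, and at a 3-fold mark 5 were higher and 2 lower, where 12.7% and 4.55% were.

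**Figure D1:**
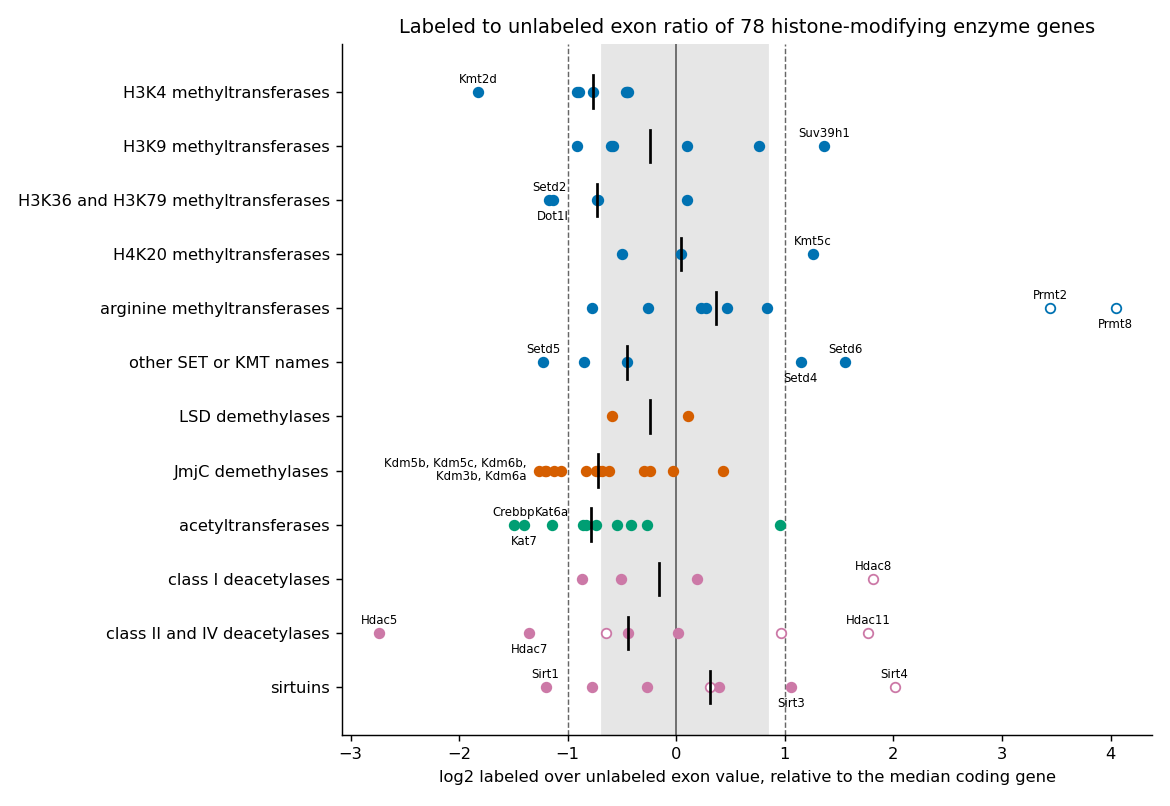
Log2 of the labeled over the unlabeled exon value, relative to the median coding gene, of the 78 enzyme genes by role, 1 point per gene and 1 library per pool. Open points have a mean exon value under 10, black bars are group medians, the grey band is the range between the quartiles of all 14119 coding genes (-0.68 to 0.84) and dashed lines mark 2-fold. The genes past 2-fold are named. The JmjC demethylases and acetyltransferases lie mostly left of 0, and the genes farthest to the right are open points.

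Level moved with the ratio. Across the 78 genes Spearman's rho between the mean exon value and the log2 ratio was -0.49, and across all 14119 coding genes it was -0.29. These are descriptions across genes, which are not replicates and share both libraries, and the mean exon value is itself part of the ratio. The 8 enzymes with a mean exon value under 10 had a median log2 ratio of 1.79, with 5 of the 8 more than 2-fold higher. No median or share was taken over the 3782 coding genes under 10. These enzymes are therefore not set apart from low genes in general. The 48 with a mean of at least 100 had a median of -0.73, with 13 more than 2-fold lower and 2 higher, or 27.1% and 4.17%. In all 4402 coding genes at that level the median was -0.38, with 19.6% lower and 10.0% higher.

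**Figure D2:**
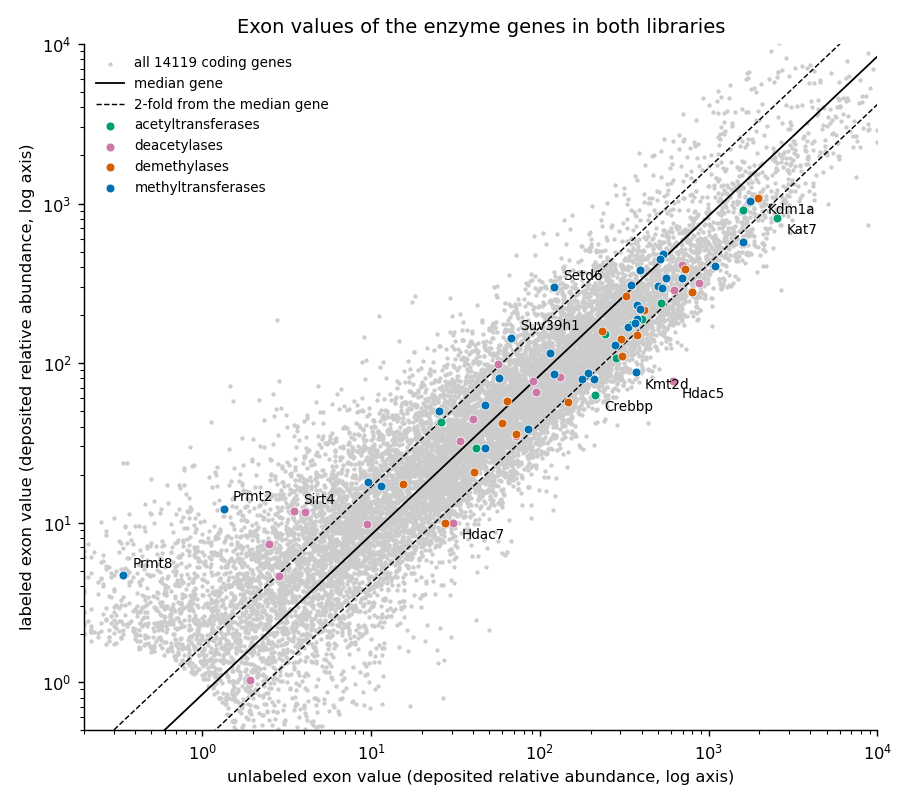
Labeled against unlabeled exon value (deposited relative abundance, both axes log) of the enzyme genes, coloured by kind, over all 14119 coding genes in grey, each point being 1 gene in 1 library per pool. The solid line is the median gene and the dashed lines are 2-fold from it, and genes beyond the axes are not drawn. Hdac5 and Kmt2d lie farthest below the lower dashed line at high level, Setd6 and Suv39h1 lie above the upper one, and Prmt2 and Prmt8 are far above it at low level.

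Among the enzymes with a mean exon value of at least 100, Hdac5 and Kmt2d had the lowest ratios and Setd6 and Suv39h1 the highest. Hdac5, a class IIa deacetylase that binds MEF2 factors, lies at chr11:102194432-102230166 on the minus strand. Its exon value was 76.8 labeled and 611 unlabeled, a log2 ratio of -2.74, or 6.66-fold below the median gene. Of the 4402 coding genes at this level, 3 had a lower ratio. Its labeled over unlabeled value before centring, 0.126, is below the 0.142 taken further below as carried-over unlabeled RNA. Hdac5 therefore has no ratio once that leakage is subtracted. Kmt2d, which monomethylates H3K4 at enhancers, lies at chr15:98831669-98871204 on the minus strand and had 87.5 labeled and 371 unlabeled, a log2 ratio of -1.82, with 71 of the 4402 genes lower. Setd6, which is known to methylate the NF-κB subunit RelA, lies at chr8:95715881-95719010 on the plus strand and went the other way, with 299.7 labeled and 122 unlabeled and a log2 ratio of 1.55, with 204 of the 4402 genes higher. Suv39h1, which trimethylates H3K9 in heterochromatin, lies at chrX:8061171-8074760 on the minus strand and had 145 labeled and 67.3 unlabeled, a log2 ratio of 1.36, with 287 of the 4402 genes higher. By its longest transcript, on the same scale, Suv39h1 was at 0.99, just short of 2-fold.

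The promoters of these 4 genes are shown because these genes had the most unequal labeled and unlabeled values among the enzymes at this level. They were chosen after the values were seen. Each runs from 250 bases before to 50 bases after the start that RefSeq gives on GRCm38.p6, 5′ to 3′ on the gene's strand. Capitals mark matches on either strand to 6 short motifs: the TATA box TATAAA, the CCAAT box CCAAT, the GC box GGGCGG, the ETS core CCGGAAG, the E-box CACGTG and the cyclic AMP response element core TGACGT. In the Setd6 window the GC box and the ETS core share a base. Suv39h1 has 2 promoters in the table, and the first listed is printed. Hdac5 is at chr11:102230123-102230422 (minus), Kmt2d at chr15:98871156-98871455 (minus), Setd6 at chr8:95715663-95715962 (plus) and Suv39h1 at chrX:8074711-8075010 (minus).
Hdac5: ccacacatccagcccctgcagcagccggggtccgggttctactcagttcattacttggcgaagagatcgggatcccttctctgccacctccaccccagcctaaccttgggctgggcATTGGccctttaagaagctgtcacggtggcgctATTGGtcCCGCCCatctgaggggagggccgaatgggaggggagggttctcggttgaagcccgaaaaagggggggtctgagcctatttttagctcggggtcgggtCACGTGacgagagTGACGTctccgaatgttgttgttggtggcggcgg
Kmt2d: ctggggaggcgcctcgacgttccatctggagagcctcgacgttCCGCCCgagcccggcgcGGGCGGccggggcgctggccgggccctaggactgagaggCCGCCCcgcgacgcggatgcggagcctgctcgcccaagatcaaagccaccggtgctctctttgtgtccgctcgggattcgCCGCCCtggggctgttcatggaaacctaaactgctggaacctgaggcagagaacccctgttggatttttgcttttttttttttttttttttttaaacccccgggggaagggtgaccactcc
Setd6: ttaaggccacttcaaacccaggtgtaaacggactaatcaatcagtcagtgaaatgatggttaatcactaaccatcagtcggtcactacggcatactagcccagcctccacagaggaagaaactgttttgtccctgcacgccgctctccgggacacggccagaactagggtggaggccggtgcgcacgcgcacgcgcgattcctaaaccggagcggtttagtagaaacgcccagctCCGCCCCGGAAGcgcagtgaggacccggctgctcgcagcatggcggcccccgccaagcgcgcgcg
Suv39h1: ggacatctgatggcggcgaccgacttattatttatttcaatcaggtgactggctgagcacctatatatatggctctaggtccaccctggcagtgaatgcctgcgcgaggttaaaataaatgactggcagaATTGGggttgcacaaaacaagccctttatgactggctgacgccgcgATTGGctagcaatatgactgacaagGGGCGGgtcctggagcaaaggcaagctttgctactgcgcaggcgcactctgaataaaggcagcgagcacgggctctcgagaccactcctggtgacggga

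The Hdac5 window held 2 CCAAT boxes, a GC box, an E-box and a cyclic AMP response element core, and the Kmt2d window held 4 GC boxes. The Setd6 window held a GC box and an ETS core, and that of Suv39h1 held 2 CCAAT boxes and a GC box. Promoters were found for 64 of the 79 genes, 87 in all. A GC box was in 65.5% of these 87, against 35.7% of all 32851 promoters in the table. A TATA box was in 4.60% against 13.6%, a CCAAT box in 39.1% against 37.4%, an ETS core in 17.2% against 8.86%, an E-box in 10.3% against 7.15% and a cyclic AMP response element core in 12.6% against 7.51%. The member promoters had a median GC content of 62.0% and 23 CpG dinucleotides, against 52.7% and 7 over all promoters, and GC content moves with matches to the GC-rich motifs. These matches are letters in a window and not binding sites.

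By their coding transcripts the 7 H3K4 methyltransferases all had ratios below the median gene, with a median of -0.76. They ranged from -1.82 to -0.44, and 1 of them, Kmt2d, was past 2-fold. A mean exon value of at least 100 was reached by 5 of the 7. At that level 66.3% of all coding genes lay below the median gene, with a median of -0.38. Coding transcripts held 34.2% of the labeled and 76.4% of the unlabeled exon value of Setd7, and 26.5% and 49.8% in Setd1b. Summed over all transcripts, both would have a higher labeled over unlabeled ratio. Setd7 would then even be higher in labeled than in unlabeled RNA. The shared direction of the 7 thus holds for coding transcripts only. Kmt2a and Kmt2b act with menin at promoters. Kmt2a had an exon value of 230.5 labeled and 378 unlabeled, and Kmt2b 86.2 and 194. Kmt2c, the partner of Kmt2d at enhancers, had 304 labeled and 503 unlabeled. In unlabeled RNA Kmt2c was thus 1.36 times Kmt2d, and in labeled RNA 3.48 times, a difference of 1.36 between their log2 ratios. Setd1a and Setd1b are the catalytic subunits of the complexes that place most of the trimethylation. Setd1a had the highest unlabeled level of the group, with 341 labeled and 693 unlabeled, and Setd1b was far lower, with 38.5 and 85.4, although their log2 ratios, -0.76 and -0.89, were close. Setd7, a monomethyltransferase that also acts on many proteins other than histones, had 29.2 labeled and 47.5 unlabeled and the highest log2 ratio of the group, -0.44.

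The Kmt2d and Hdac5 values rest partly on short annotated isoforms. Kmt2d has 4 coding transcripts, and the one with the highest mean exon value is 751 bases long, taking 32.5% of the labeled and 44.2% of the unlabeled exon value. The longest, of 19823 bases, had 25.7 labeled and 67.4 unlabeled, a log2 ratio of -1.13. For Hdac5, with 7 coding transcripts, the leading one has 692 bases and took 22.3% of the labeled and 41.1% of the unlabeled value. The longest Hdac5 transcript, of 4852 bases, had 7.26 labeled and 42.3 unlabeled, a log2 ratio of -2.29. Both genes thus stayed more than 2-fold below the median gene by their longest transcript, Kmt2d by much less.

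The 6 H3K9 methyltransferases were split, with 3 above and 3 below the median gene and a median of -0.24. Suv39h2, which shares the role of Suv39h1 in pericentromeric heterochromatin, had 294 labeled and 525 unlabeled, a log2 ratio of -0.58, where Suv39h1 had 1.36. Suv39h2 was 7.81 times Suv39h1 in unlabeled RNA and 2.04 times in labeled RNA. Of the 11 paralog pairs compared, this pair differed most in log2 ratio, by 1.94. Ehmt1 and Ehmt2, known as GLP and G9a, form the dimer that dimethylates H3K9. Ehmt1 had the highest unlabeled level of the group, with 481 labeled and 536 unlabeled. Ehmt2 had 79.04 and 178 and the lowest log2 ratio of the group, -0.92, so that Ehmt1 exceeded it 3.01 times in unlabeled and 6.09 times in labeled RNA. By their longest transcripts the distance was smaller, with Ehmt1 at 43.95 labeled and 52.3 unlabeled and Ehmt2 at 16 and 32.1. Setdb1, which silences retroviral elements in these cells with Trim28, had 218 labeled and 394 unlabeled. Setdb2 was higher in labeled RNA, with 81.0 labeled and 57.0 unlabeled and a log2 ratio of 0.76.

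Of the 5 H3K36 and H3K79 methyltransferases, 4 lay below the median gene and 2 of these were past 2-fold, with a group median of -0.73. All 5 had a mean exon value of at least 100. At that level 66.3% of all coding genes lay below the median gene and 19.6% were more than 2-fold lower. Setd2, which trimethylates H3K36 behind the polymerase, had the highest unlabeled level, with 405 labeled and 1089.7 unlabeled and a log2 ratio of -1.17, the lowest of the group. Dot1l, the H3K79 methyltransferase, had 79.7 labeled and 209 unlabeled and a log2 ratio of -1.13. By their longest transcripts Setd2 was at -0.93, not past 2-fold, and Dot1l was lower, at -1.26. The Nsd genes make dimethylated H3K36. Nsd1 and Nsd2 had log2 ratios of -0.73 and -0.72, and Nsd3, with 310.5 labeled and 346 unlabeled, had 0.10, the highest of the 5.

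The 3 H4K20 methyltransferases had a median of 0.05. Kmt5a, which places the first methyl group and is needed for chromosome compaction, had the highest level of the 3, with 1040.5 labeled and 1763 unlabeled and a log2 ratio of -0.50. Kmt5b and Kmt5c add the further methyl groups. Kmt5b had nearly the same exon value in both libraries, 447 labeled and 517 unlabeled. Kmt5c was low and higher in labeled RNA, with 50.3 labeled and 25.2 unlabeled and a log2 ratio of 1.26.

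Among the 8 arginine methyltransferases 6 lay above the median gene, with a median of 0.37. The 2 past 2-fold, Prmt8 and Prmt2, both had little unlabeled RNA. Prmt8, known from brain, had 4.70 labeled and 0.34 unlabeled and a log2 ratio of 4.05. Prmt2 had 12.2 labeled and 1.34 unlabeled and a log2 ratio of 3.45. The enzymes that make most of the asymmetric and the symmetric dimethylarginine differed. Prmt1 had the highest level of the group, with nearly equal values of 383 labeled and 389.9 unlabeled. Prmt5 had 178 labeled and 366 unlabeled and the lowest log2 ratio of the 8, -0.78. Prmt7 had nearly equal values too, 115 labeled and 114 unlabeled, and Prmt6, which methylates H3R2, had 17.01 and 11.4. Prmt9, which methylates a splicing factor, and Prmt3, which methylates a ribosomal protein, had log2 ratios of 0.47 and -0.26.

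The 5 other SET or KMT names spread widely, from -1.22 to 1.55. Setd5 and Kmt2e carry SET domains whose activity on histones is in doubt. Setd5 had the highest unlabeled level of the 5 and was past 2-fold lower, with 574 labeled and 1601 unlabeled and a log2 ratio of -1.22. Kmt2e and Setd3, an actin methyltransferase, had log2 ratios of -0.45 and -0.85. Setd4 was low and higher in labeled RNA, with 17.8 labeled and 9.62 unlabeled and a log2 ratio of 1.15.

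The demethylases of the LSD type, which work through a flavin cofactor, were far apart in level. Kdm1a, the H3K4 demethylase of the CoREST complex, had 1089 labeled and 1965 unlabeled and a log2 ratio of -0.59. Kdm1b had 58.0 labeled and 64.2 unlabeled and a log2 ratio of 0.11.

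Of the 14 tested demethylases of the JmjC type, which use iron and 2-oxoglutarate, 13 lay below the median gene, with a median of -0.72, and 5 of the 14 were more than 2-fold lower, or 35.7%, where 14.8% of all coding genes were. None was more than 2-fold higher. A mean exon value of at least 100 was reached by 9 of the 14. At that level 19.6% of all coding genes were more than 2-fold lower, with a median of -0.38. Kdm5b and Kdm5c remove methyl groups from H3K4. Kdm5b had the highest unlabeled level of the 14 and their lowest ratio, with 278 labeled and 796 unlabeled and a log2 ratio of -1.26. Summed over all its transcripts, non-coding ones included, Kdm5b was at -0.84, not past 2-fold and above Kdm6b (-1.48), Kdm5c (-1.24) and Kdm3b (-1.22). Kdm5c, on the X chromosome, had 111 labeled and 307 unlabeled and a log2 ratio of -1.21. Its Y-linked paralog Kdm5d, read from the Y of this XY line, had 42.1 labeled and 59.3 unlabeled and a log2 ratio of -0.24. Kdm5c was 5.18 times Kdm5d in unlabeled RNA and 2.65 times in labeled RNA. How the reads of such near copies were divided was set by the authors' quantification, so both values are uncertain. Kdm6a and Kdm6b remove methyl groups from H3K27. Kdm6a had 151 labeled and 376 unlabeled and was 13.7 times Kdm6b in unlabeled RNA, where Kdm6b had 27.4, against 9.99 labeled. Despite this distance in level their log2 ratios, -1.06 and -1.20, were close. The H3K9 demethylase Kdm3b, with 56.6 labeled and 148 unlabeled, had a log2 ratio of -1.13. Kdm4b, which acts on H3K9 and H3K36, was the 1 JmjC gene above the median gene, with 17.5 labeled and 15.5 unlabeled and a log2 ratio of 0.43. The others lay between the extremes, with log2 ratios of -0.83 in Kdm3a, -0.74 in Kdm4a, -0.71 in Kdm7a, -0.68 in Kdm2b, -0.62 in Kdm4c, -0.29 in Kdm5a and -0.03 in Kdm2a.

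Of the 10 acetyltransferases 9 lay below the median gene, with a median of -0.79, and 3 were more than 2-fold lower. That is 30%, where 14.8% of all coding genes were lower. A mean exon value of at least 100 was reached by 8 of the 10. At that level 19.6% of all coding genes were lower, with a median of -0.38. Crebbp and Ep300 acetylate H3K27 at enhancers. Crebbp had the lowest ratio of the group, with 62.9 labeled and 212 unlabeled and a log2 ratio of -1.49. Ep300 had 239 and 519 and a log2 ratio of -0.86, and it exceeded Crebbp 2.45 times in unlabeled and 3.80 times in labeled RNA. Much of this excess is a transcript of 559 bases, with 134.7 labeled and 245 unlabeled. The longest Ep300 transcript, of 9566 bases, had 104.5 labeled and 273.8 unlabeled, a log2 ratio of -1.13. That is closer to the values of Crebbp, which has a single coding transcript. Of the MYST enzymes, Kat7, also known as HBO1, had 809.8 labeled and 2554 unlabeled and a log2 ratio of -1.40. Kat6a and Kat6b, which acetylate H3 with the same BRPF partners, had log2 ratios of -1.14 and -0.55. Kat6b exceeded Kat6a 5.65 times in unlabeled RNA, at 1593 against 282, and 8.55 times in labeled RNA, at 913 against 107. Kat2a and Kat2b, the exchangeable H3K9 acetyltransferases of SAGA, had close values. Kat2a had 190.0 labeled and 403 unlabeled, and Kat2b 175 and 350.2. Kat14 and Kat5, the latter known as Tip60, had log2 ratios of -0.42 and -0.27. Kat8, the H4K16 acetyltransferase, was the 1 member above the median gene, with 42.4 labeled and 26.1 unlabeled and a log2 ratio of 0.96.

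Among the 4 class I deacetylases, the catalytic core of NuRD, Sin3 and CoREST lay below the median gene. Hdac1 had the higher level, with 410.5 labeled and 697 unlabeled and a log2 ratio of -0.51. Hdac2 had 287 labeled and 626 unlabeled and the lowest log2 ratio of the 4, -0.87. Hdac3, a corepressor deacetylase, was far lower and nearly equal in both libraries, at 32.3 labeled and 33.7 unlabeled. Hdac8 was lower still and higher in labeled RNA, with 7.32 labeled and 2.49 unlabeled and a log2 ratio of 1.81.

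The 7 class II and class IV deacetylases included the lowest ratio of all 78 genes, that of Hdac5. Hdac7, of the same class IIa, had 9.98 labeled and 30.5 unlabeled and was also past 2-fold lower, at -1.35. The other 2 enzymes of class IIa, which move between nucleus and cytoplasm, were not past 2-fold. Hdac4 had 81.2 labeled and 132 unlabeled and a log2 ratio of -0.44, and Hdac9 had a ratio of -0.65 from values under 2. Hdac6, a cytoplasmic tubulin deacetylase, and Hdac10, a polyamine deacetylase, had log2 ratios of 0.02 and 0.96. Hdac11, the class IV enzyme, had 11.6 labeled and 4.08 unlabeled and the highest log2 ratio of the 7, 1.77.

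Of the 7 sirtuins, the deacetylases that consume NAD, 4 lay above the median gene, with a median of 0.31. Sirt1, a nuclear enzyme, had the highest level and the lowest ratio of the 7, with 319 labeled and 879 unlabeled and a log2 ratio of -1.20. The mitochondrial Sirt3 and Sirt4 were past 2-fold higher. Sirt3 had 98.3 labeled and 56.3 unlabeled and a log2 ratio of 1.06, which was 0.59 by its leading and 0.68 by its longest transcript. Sirt4 had 11.8 labeled and 3.50 unlabeled and a log2 ratio of 2.01. Sirt5, also mitochondrial, had nearly equal values of 9.86 labeled and 9.48 unlabeled. The nuclear Sirt6 and Sirt7 had log2 ratios of -0.78 and 0.39, and Sirt2, mostly cytoplasmic, -0.27.

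**Figure D3:**
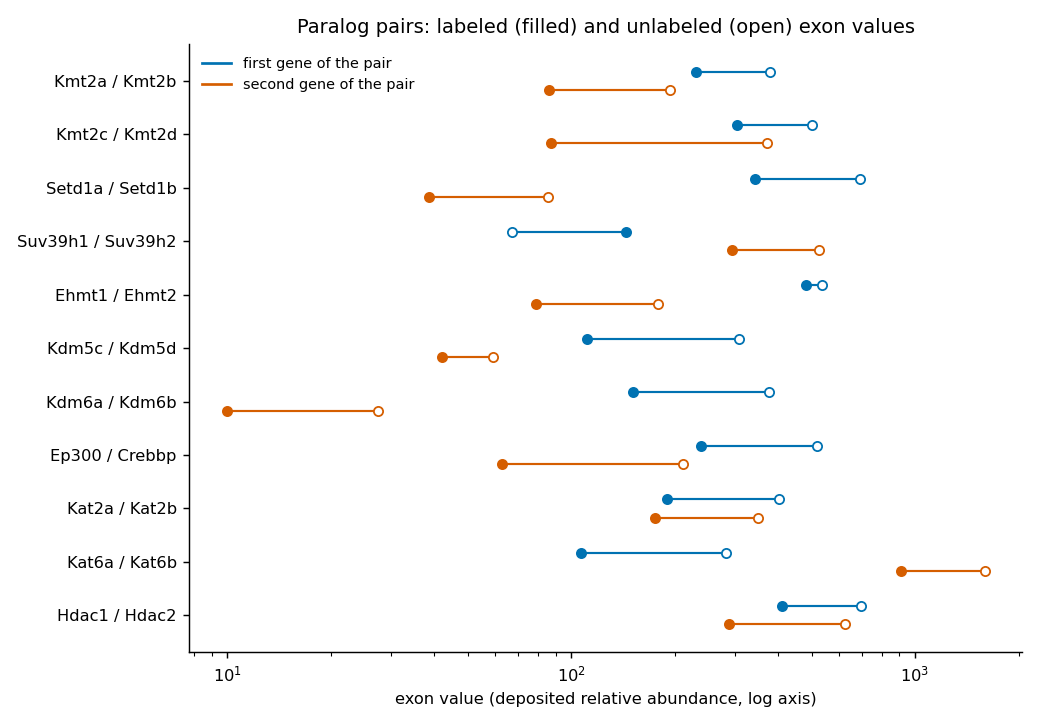
Exon values (deposited relative abundance, log axis) of both genes of 11 paralog pairs, filled points for the labeled and open points for the unlabeled library, 1 library each, with a line joining the values of a gene. The labeled value lies left of the unlabeled one in every gene drawn except Suv39h1, at 145 labeled and 67.3 unlabeled.

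Intron to exon ratios describe how much of a gene's RNA is still unspliced. In labeled RNA the 78 enzymes had a median ratio of 0.441 (upper quartile 0.669), against 0.576 over the 13025 coding genes with both intron values above 0. In unlabeled RNA the median was 0.0731 (quartiles 0.0327 and 0.141), against 0.122. The ratio was higher in labeled RNA in 75 of 78 genes, the exceptions being Prmt2, Prmt8 and Sirt4. The medians of all coding genes had the same direction, and the share of them with a higher labeled ratio was not counted. Kmt2d, Hdac5 and Kmt5a had the lowest unlabeled ratios, 0.00402, 0.00621 and 0.00681. Their labeled ratios were far apart, at 0.076, 0.31 and 0.0466. The intron value of Hdac5 was 23.8 labeled and 3.80 unlabeled, so its introns were higher and its exons lower in the labeled library.

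Intron values were at or above exon values in labeled RNA in 14 of the 78 enzymes, or 17.9%, where 28.7% of the 13025 coding genes were. They were Setd1b (3.11), Sirt5 (2.47), Hdac7 (2.00), Kmt5c (1.86), Setd4 (1.80), Hdac11 (1.66), Hdac9 (1.54), Prmt6 (1.49), Kdm4b (1.47), Sirt4 (1.43), Prmt7 (1.38), Hdac4 (1.26), Prmt2 (1.21) and Suv39h1 (1.15), with the labeled intron to exon ratio in brackets. In unlabeled RNA Setd1b kept an intron value of 102 over an exon value of 85.4, the smallest distance in intron value between the libraries among the 78 genes. Prmt7 and Hdac4, by contrast, had unlabeled ratios of 0.208 and 0.144.

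A high unlabeled intron to exon ratio went with a high labeled exon ratio. The unlabeled ratio was 0.3 or more in 15 enzymes, or 19.2%, where 27.7% of the 13025 coding genes reached it. Of the 10 enzymes more than 2-fold higher in labeled RNA, 9 were among these 15, and Setd6, with an unlabeled ratio of 0.0464, was the other one. Over all coding genes more than 2-fold higher, 62.4% of 2660 had an unlabeled ratio of 0.3 or more. Of the 15 enzymes more than 2-fold lower, 14 had an unlabeled ratio under 0.1, Hdac7 being the exception at 0.249, and of all 1925 lower coding genes 70.1% did. Spearman's rho between the unlabeled ratio and the exon log2 ratio was 0.65 across the 78 genes and 0.40 across the 13617 coding genes with both ratios, a description across genes whose measures share the unlabeled exon value. The 15 enzymes had a median mean exon value of 14.2, against 229 in the other 63. Another gene overlapped 11 of the 15 and 39 of the other 63, and 9 of the 15 and 46 of the 63 had an annotated transcript that keeps an intron. The part of such overlaps in the intron values was not tested.

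**Figure D4:**
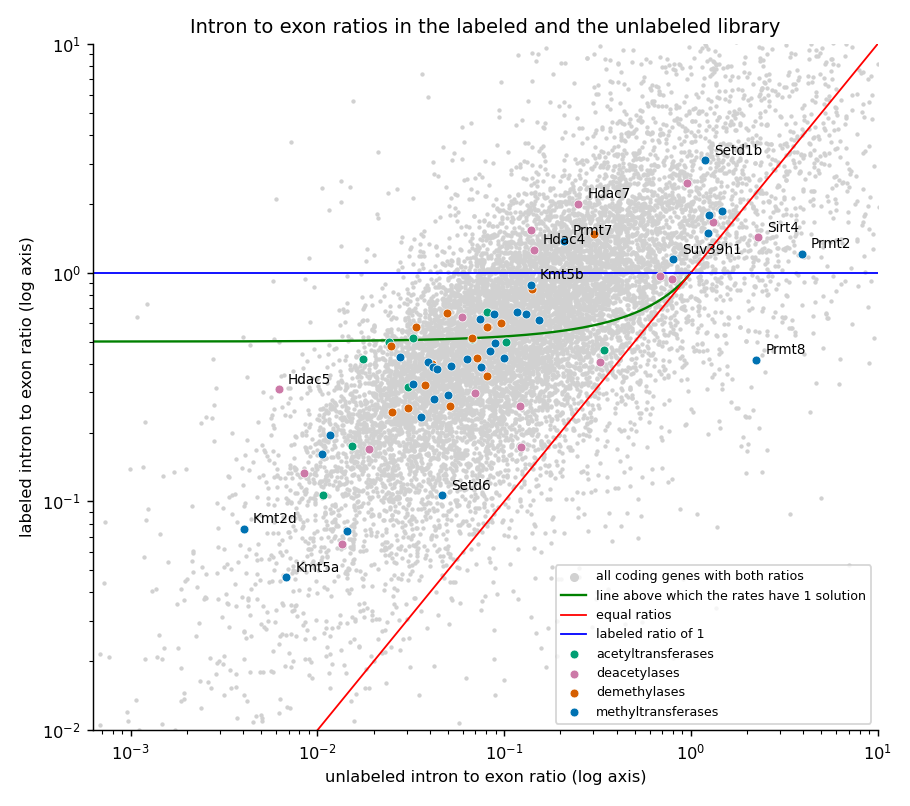
Labeled against unlabeled intron to exon ratio (both axes log) of the enzyme genes, coloured by kind, over all coding genes with both ratios in grey, each point being 1 gene. Above the green line the rate model has 1 solution, below the red diagonal or above the blue line at a labeled ratio of 1 it has none, and points beyond the axes are not drawn. Most enzymes, 45 of 78, lie between the green line and the diagonal, with 14 at or above the blue line.

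These ratios allow rates to be computed with a model in which premature RNA is made at a constant rate, spliced at a processing rate and degraded as mature RNA at a degradation rate. The model has exactly 1 solution where the labeled ratio is under 1 and above a line set by the unlabeled ratio, and 2 or no solutions between that line and equal ratios. Of the 78 enzymes 18 lay above the line, or 23.1%, where 22.5% of the coding genes did. Another 45, or 57.7%, lay between the line and the diagonal, where 43.4% of the coding genes did. Of these, 9 had 2 solutions and 36 had none. Outside the model were 34.2% of the coding genes and, among the enzymes, the 14 whose labeled ratio reached 1 together with Prmt8, the 1 enzyme with a labeled ratio under 1 and below the diagonal, where 5.45% of the coding genes lay. Prmt2 and Sirt4, with labeled ratios over 1, also lay below the diagonal. The JmjC demethylases had 7 of their 14 genes above the line and the H3K4 methyltransferases 0 of 7.

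The 18 genes with 1 solution had a median half-life of 28.4 min, from 9.66 min in Hdac8 to 131.9 min in Kmt5b. The JmjC demethylases among them had 12.3 min for Kdm5c, 17.1 min for Kdm2a, 17.2 min for Kdm3b, 17.2 min for Kdm2b, 46.6 min for Kdm5b, 61.0 min for Kdm7a and 83.8 min for Kdm4a. Kdm2a and Kdm2b, which remove methyl groups from H3K36, and Kdm3b lay close together in the values as deposited, but not with the leakage subtraction described next, at 40.8 min for Kdm2a, 79.1 min for Kdm2b and 210.0 min for Kdm3b. The H3K9 methyltransferases Setdb2, Ehmt1 and Setdb1 had 10.7, 19.3 and 31.1 min, the H3K36 methyltransferase Nsd2 28.6 min and the arginine methyltransferase Prmt3 24.3 min. The acetyltransferases Kat6a and Kat2b had 28.1 and 36.7 min, and the sirtuins Sirt3 and Sirt1 41.2 and 41.6 min. Processing half-lives of the 18 had a median of 6.91 min, from 3.93 min in Kdm5c to 94.9 min in Sirt3. In Hdac8, at 41.3 min, and in Sirt3 the processing half-life was longer than the RNA half-life. The authors expect splicing to be faster than degradation in general. The Hdac8 half-lives also rest on low exon values, 7.32 labeled and 2.49 unlabeled.

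These half-lives depend strongly on the labeled ratio. A labeled ratio 10% higher moved the median to 45.7 min over the 16 genes that kept 1 solution, and one 10% lower moved it to 16.7 min over 15. Subtracting carried-over unlabeled RNA from the labeled library, taken as 0.142 times the unlabeled value, moved it to 169 min over 15 genes and Kdm5b from 46.6 to 1963 min. Reading the second library as total RNA moved the median to 70.3 min. Taking the leading transcript of each gene moved it to 18.5 min over 14 genes, with Sirt3 at 7.05 min and Setdb1 at 13.1 min. Over these settings the half-life of Kmt5b ran from 18.6 min by its leading transcript to 751 min with the higher labeled ratio. With 1 library per pool no order among the 18 can be held against an error. Of the lowest ratios, Hdac5 had 2 solutions, at 3.44 and 10.7 min, as had Crebbp, at 0.198 and 33.1 min, and Kat7, at 1.12 and 19.5 min. No choice was made between them here. For transcripts with 2 solutions the authors kept the one whose rates were closest to those of other transcripts.

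**Figure D5:**
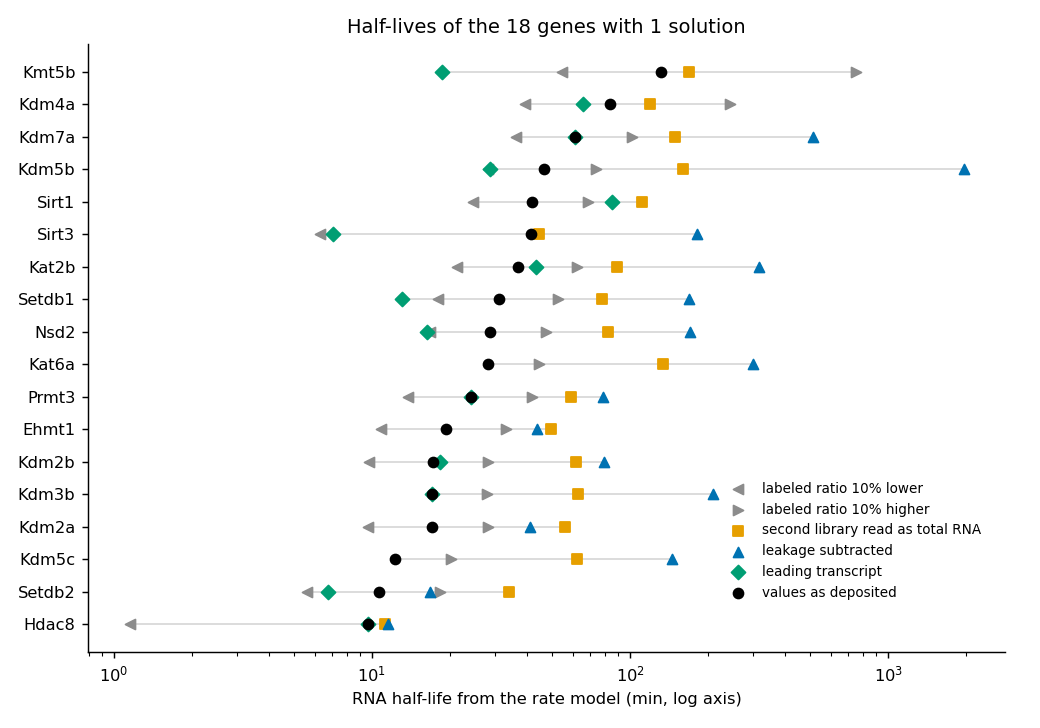
RNA half-life in min (log axis) from the rate model for the 18 enzyme genes with 1 solution, with black points for the values as deposited and other symbols for 5 changed settings, a missing symbol meaning that the setting left no single solution. Grey lines span the settings of a gene. The black points run from 9.66 to 131.9 min, and subtracted leakage moves every gene in which it gives a value to the right, up to 1963 min in Kdm5b.

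Isoforms carried much of the detail behind the gene values. The 79 genes had a median of 3 coding transcripts, up to 14 in Kmt5b, and 15 genes had 1. Of the 64 genes with several, the coding transcript with the highest mean exon value was the longest one in 18, and the leading transcript differed between the libraries in 14. Transcripts annotated as non-coding took part of the exon value in 67 genes. The median share of a gene's exon value on its coding transcripts was 55.3% labeled and 65.2% unlabeled. It was lowest in Prmt3, at 11.9% labeled and 15.1% unlabeled. Summing over all transcripts, coding or not, left the median log2 ratio at -0.50, but Setd5 (-0.91), Kdm5b (-0.84), Kdm6a (-0.97) and Sirt3 (0.97) were then no longer past 2-fold.

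Transcript length and base content were set beside the ratios. Spearman's rho between the log2 ratio and the spliced length of the leading transcript was -0.26 across the 78 genes and -0.29 across all coding genes, and with unspliced length -0.18 and -0.28. With the share of U in the transcript, the base that 4sU replaces, rho was 0.12 across the 78 and -0.12 across all genes. With GC content it was 0.01 and 0.11. The leading transcripts had a median of 2746 bases, 12 exons and 22.6% U, against 2330 bases, 7 exons and 24.1% U over all coding genes. These values are descriptions across genes that share both libraries.

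Genes that work with these enzymes were set beside them. Their counts stand against the 21.9% of all coding genes that were more than 2-fold higher and the 14.8% that were lower, or 10.0% and 19.6% at a mean exon value of at least 100, a level reached by 14 of the 25 related enzymes, 49 of the 66 partner subunits and 9 of the 13 readers. Of 25 related enzymes outside the symbol rule, 3 were more than 2-fold higher in labeled RNA and 6 lower, with a median of -0.37. Higher were Setmar (3.32), Smyd4 (1.60) and Smyd3 (1.48), and lower were Mecom (-2.41), Smyd5 (-1.35), Phf8 (-1.29), Uty (-1.15), Carm1 (-1.08) and Ncoa1 (-1.03), with the log2 ratio in brackets. Of 66 partner subunits, 3 were higher and 17 lower, or 25.8%, with a median of -0.50. The lowest was Men1, which encodes menin, with 68.4 labeled and 329 unlabeled and a log2 ratio of -2.01. Of the listed subunits of NuRD, a complex of Hdac1 and Hdac2, those past 2-fold lower were Gatad2a (-1.66), Chd4 (-1.41), Mta1 (-1.38), Rbbp4 (-1.26) and Gatad2b (-1.11), and those not past 2-fold were Mta2 (-0.85), Mta3 (-0.50), Rbbp7 (-0.40), Mbd3 (0.41) and Mbd2 (0.73). Also lower were Hcfc1 (-1.52), Ing3 (-1.52), Cbx5 (-1.45), Tbl1x (-1.38), Wdr77 (-1.29), Trrap (-1.28), Wiz (-1.24), Atf7ip (-1.12), Rcor1 (-1.10) and Rcor2 (-1.05). Higher were Sap18 (1.71), a Sin3 subunit with 733 labeled and 268 unlabeled, Sin3b (1.13) and Pagr1a (1.08). Of 13 acetyl-lysine readers, 1 was higher and 4 lower, with a median of -0.58. Among the lower ones were Brd1, a scaffold of acetyltransferase complexes, at a log2 ratio of -1.26, the BET protein Brd3 at -1.13 and the YEATS reader Mllt3 at -1.06. The 1 higher gene was its paralog Mllt1, at 1.51.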

How the data were processed

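The authors removed reads that map to ribosomal RNA, aligned the rest to exonic and intronic sequences of Ensembl v91 (GRCm38) with STAR 2.5.0 and quantified them per transcript with RSEM. The deposited score is a relative abundance that the authors name TPM, although its total in a library is 10-fold larger than TPM values have. Nothing was tested, since there is 1 library per pool, and depth is unknown.

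Values were summed over the protein-coding transcripts of a gene (GENCODE M21). Of all transcripts 11063 were not in that annotation. Genes with a mean exon value above 1 and both exon values above 0 were kept, and log2 ratios were centred on the median coding gene. Rates were solved on 4000 grid points with a labeling time of 10 min, a step tested on simulated data. Named were the highest and lowest ratio and the highest unlabeled level per role, paralog pairs, genes past 2-fold, labeled intron to exon ratios of 1 or more and genes with 1 solution. Some genes of the related lists are not reported here. Members and lists were chosen with earlier results of these data known. Leakage was set to the 1st percentile of labeled over unlabeled exon values. Scripts ran in Python 3.11.15 (numpy 2.4.6, pandas 2.3.3), with rank correlations from scipy 1.17.1 and plots from matplotlib 3.10.9.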

Additional observations from a re-analysis of the deposited data

How the results depend on the processing

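No paired analysis was possible because each pool has 1 library, and no replicate could be left out. The median log2 ratio of the enzymes, -0.50, stayed negative under each alternative run for it and moved most with the reference, to -0.76 with no centring and -0.12 against genes with a mean exon value of at least 100. The 15 genes past 2-fold lower became 27 with no centring, 4 against that reference, 25 with leakage subtracted, 36 at a 1.5-fold mark and 2 at a 3-fold mark. With leakage subtracted 32.5% of the 77 enzymes kept were lower, where 21.4% of all coding genes were. Hdac5 was not among those kept, since the subtraction took its whole labeled exon value. The 10 higher genes became 6 with a minimum mean exon value of 10 and 5 at a 3-fold mark. Enzymes with a labeled intron to exon ratio of 1 or more went from 14 to 9 with that minimum and to 7 by the leading transcript. Leakage moved the median labeled ratio from 0.441 to 0.629 and the genes above the line from 18 to 28. The median half-life of 28.4 min became 169 min with leakage subtracted, 70.3 min with the second library read as total RNA, 18.5 min by the leading transcript, and 45.7 or 16.7 min with a labeled ratio 10% higher or lower. Using the longest transcript and shifting the labeled ratio were chosen after seeing the data. Of the values of single genes, 194 stayed past 2-fold under an alternative and 25 did not, among them those of Sirt3 and Kdm6a by the leading transcript and of Kdm5b, Setd5, Kdm6a and Sirt3 over all transcripts, and none turned direction. Smaller shifts took the higher genes from 10 to 14 against the genes of at least 100 and to 7 with no centring, and the genes between line and diagonal from 45 to 31 with leakage subtracted. The cause of these moves was not tested. Low values limit the rest: 8 of the 78 enzymes had a mean exon value under 10, and 5 of these were among the 10 higher genes.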
